A study of Mus musculus with 10 samples.

Results

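Siglecs are cell surface lectins of the immunoglobulin superfamily that bind sialic acid, the sugar that caps most glycans of vertebrate cells. Many carry inhibitory motifs (ITIMs) in the cytoplasmic tail, which recruit the phosphatases encoded by Ptpn6 and Ptpn11 when the receptor binds sialylated glycans, whereas others signal through the adaptor encoded by Tyrobp. On microglia, the resident macrophages of the brain, some of them are known as brakes on phagocytosis and on inflammatory signalling. The 5 receptors described here are Cd22, Cd33, Siglech, Siglece and Siglec1, among 24453 gene symbols measured and among 9 genes of the mouse family. They were chosen by name with earlier results of the same libraries known, so their values in all 10 libraries are a description and carry no test of their own.

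RNA was sequenced from microglia isolated with magnetic beads from the brains of untreated C57bl6 mice. Ageing was studied in 3 libraries of mice 15 months old (aged) set against 3 of mice 10 weeks old (young). A separate set, from mice 3 months old, held 2 libraries labelled Rab7 deltaMG, which the series calls null mutants, and 2 labelled Rab7 control. For this set the alleles, the driver of the deletion, the genotype of the controls and any pooling of mice were not given in the sources used here. Values were taken to be RPM, reads scaled to a common library total, which was inferred from their step size and is not stated by the submitters. On that reading 6098294 to 9907468 reads lay behind that total, with 1284414 to 1855048 of them in the listed genes. All read counts below are inferred in the same way. Separate animals for the replicates are nowhere stated in the labels, so p-values measure only the spread between libraries, which may be technical.

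Some facts of the libraries bear on every value below. Rab7 (chromosome 6, 87999106 to 88045270, minus strand, GRCm38) was at 72.2 and 79.4 RPM in the libraries labelled deltaMG and at 64.2 and 67.5 RPM in those labelled control (limma adjusted p = 0.668). It therefore does not check the labels, and each direction in that comparison rests on them. The X-linked transcript Xist was at 0.127 to 0.940 RPM in aged and at 1715 to 1771 RPM in young libraries, and the sum of 4 Y-linked genes was 35.7 to 48.7 RPM in aged and at most 0.288 RPM in young libraries. Age and sex therefore cannot be told apart there. Libraries labelled deltaMG and control carried both kinds of transcript. All 10 microglia markers had reads in every library and summed to 3825 to 6611 RPM. Transcripts of blood cells were also present, with 12 neutrophil markers at 969 to 4323 RPM in aged, 560 to 1432 RPM in young, 1191 to 1829 RPM in labelled deltaMG and 463 to 697 RPM in labelled control libraries.

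The members lie in separate places in the genome (GRCm38). Cd22, a receptor best known as an inhibitor of B cell signalling, spans chromosome 7, 30865402 to 30880342, on the minus strand, next to Mag. Cd33 (chromosome 7, 43524216 to 43544428, minus strand) and Siglece (chromosome 7, 43651070 to 43660161, minus strand) lie in a cluster with Siglecf and Siglecg. Siglech, a mouse receptor that signals through the Tyrobp adaptor, lies at chromosome 7, 55768178 to 55778925, on the plus strand. Siglec1, the adhesion receptor sialoadhesin of macrophages, lies on chromosome 2, 131069220 to 131086765, on the minus strand. No run of 50 bases in the annotated transcripts of any member was found in another family gene. Of such runs in Cd22, 7.84% were found in some other gene on either strand, mostly in the antisense transcript Gm29439, and since no strand setting is given, reads from it could not be told from those of Cd22. For the other 4 members the share was at most 1.3%.

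Promoter windows of 250 bases before to 50 bases after the annotated start (RefSeq, GRCm38.p6) were held for 4 of the 5 members. They are shown for Cd22 and Siglech, whose aged and young values did not overlap, and for Siglece, which has the most matches to the core of the motif bound by PU.1, a transcription factor of macrophages. Capitals mark that core, GAGGAA, or its reverse complement TTCCTC. The windows are chr7:30878979-30879278 on the minus strand for Cd22, chr7:55767934-55768233 on the plus strand for Siglech and chr7:43660112-43660411 on the minus strand for Siglece, each printed 5′ to 3′ along its gene.
Cd22: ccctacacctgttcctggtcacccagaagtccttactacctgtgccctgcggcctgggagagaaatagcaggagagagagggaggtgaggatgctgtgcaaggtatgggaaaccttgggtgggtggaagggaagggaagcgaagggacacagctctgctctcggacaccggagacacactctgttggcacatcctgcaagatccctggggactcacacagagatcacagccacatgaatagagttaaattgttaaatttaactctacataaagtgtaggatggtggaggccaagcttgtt
Siglech: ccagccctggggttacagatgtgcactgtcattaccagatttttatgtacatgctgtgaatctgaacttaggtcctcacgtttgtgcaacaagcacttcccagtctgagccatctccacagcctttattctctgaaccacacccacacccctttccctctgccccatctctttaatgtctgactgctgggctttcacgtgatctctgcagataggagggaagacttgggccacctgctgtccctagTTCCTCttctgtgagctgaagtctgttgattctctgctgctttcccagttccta
Siglece: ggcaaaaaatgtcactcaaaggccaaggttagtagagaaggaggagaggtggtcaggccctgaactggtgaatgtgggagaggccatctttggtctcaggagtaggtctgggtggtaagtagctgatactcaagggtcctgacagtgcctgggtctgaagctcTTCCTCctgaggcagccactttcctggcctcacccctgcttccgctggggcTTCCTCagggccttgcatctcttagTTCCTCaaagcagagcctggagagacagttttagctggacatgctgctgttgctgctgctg
The core occurred 0 times in the Cd22 window, 1 time each in those of Siglech and Cd33 and 3 times in that of Siglece. Among all 32851 windows of that length, 28.3% held it at least 1 time, so a match is common, and it describes letters and not a binding site. The gene spans given above are from GENCODE, and the RefSeq windows of Cd22 and Cd33 lie inside them. The outer ends of those spans, at 30880342 for Cd22 and 43544428 for Cd33, were therefore not scanned.

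Cd22 was the member that differed most between groups. It was at 7.21, 6.56 and 3.68 RPM in the aged libraries, against 1.26, 1.48 and 2.02 RPM in the young ones. Every aged library was above every young one. The means were 5.82 RPM ± 1.88 in aged and 1.58 RPM ± 0.389 in young libraries (SD, n = 3 each), a ratio of 3.67. The log2(RPM + 1) scale used below makes changes of low genes look smaller, and on it the difference was 1.37 with a standard error of 0.29. These levels rested on 46, 65 and 29 reads in the aged libraries and on 8, 9 and 14 reads in the young ones. In such bulk libraries a change in the number of cells of a type and a change in RNA per cell cannot be told apart.

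In the Rab7 comparison Cd22 was at 4.06 and 3.47 RPM in the libraries labelled deltaMG, against 22.3 and 18.2 RPM in those labelled control. The groups lay far apart, with 34 and 24 reads in the libraries labelled deltaMG and 150 and 129 reads in those labelled control. The mean was 3.77 RPM ± 0.417 in labelled deltaMG and 20.2 RPM ± 2.90 in labelled control libraries (SD, n = 2 each), and the ratio of these means was 0.186. The difference on the log2(RPM + 1) scale was -2.15 with a standard error of 0.36. Across the 4 groups the order of Cd22 was labelled control, aged, labelled deltaMG and young. The ranges of aged and labelled deltaMG libraries overlapped, and all other neighbours in this order were apart. Both libraries labelled control were above all 8 others.

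Cd22 is also a B cell gene, so B cell transcripts were read beside it. The 8 other B cell markers summed to 0.908 to 3.30 RPM in aged, 2.30 to 2.36 RPM in young, 2.63 and 0.868 RPM in labelled deltaMG, and 0.297 and 0.423 RPM in labelled control libraries. In the libraries labelled control, where Cd22 was highest, 7 of the 8 had no read, including Ms4a1, Cd79a and Pax5. Cd79b, the only marker of the 8 with reads in every library, reached at most 2.30 RPM. The part of B cells in the Cd22 values was not tested.

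**Figure D1:**
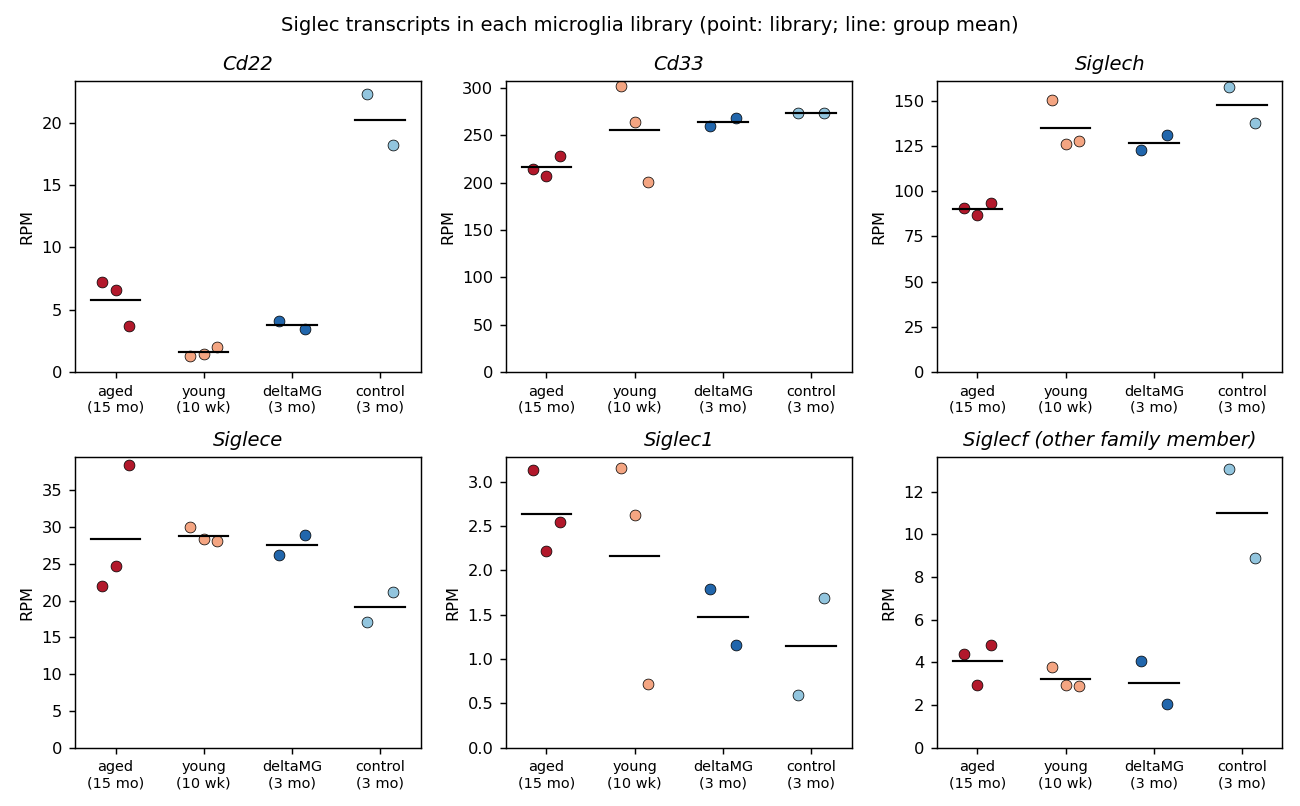
RPM (vertical axis, from 0) of the 5 receptors and of Siglecf in each library, with groups along the horizontal axis, points for libraries and a line for the group mean. Cd22 and Siglecf are highest in the 2 libraries labelled control, Siglech is lowest in the 3 aged libraries at 87.1 to 93.3 RPM, and Siglec1 stays at or below 3.15 RPM.

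Siglech, often used as a marker of microglia, was lower in every aged library than in every young one. It was at 90.7, 87.1 and 93.3 RPM in the aged libraries, against 150.5, 126 and 128 RPM in the young ones. The means were 90.4 RPM ± 3.13 in aged and 135 RPM ± 13.6 in young libraries (SD, n = 3 each), and the log2 difference was -0.57 with a standard error of 0.12. The aged values were below those of all 7 other libraries. In the libraries labelled deltaMG Siglech was at 123 and 131 RPM, against 158 and 138 RPM in those labelled control. These ranges did not overlap, but the gap was smaller than the spread of the control pair, and the log2 difference was -0.21 with a standard error of 0.14. From high to low the groups ran labelled control, young, labelled deltaMG and aged, and only the last step was free of overlap between neighbours. The summed microglia markers were also lower in aged libraries, at 3825 to 4293 RPM against 5896 to 6611 RPM in young ones. Of these 10 markers 6 were called lower by limma, beside 2.99% of all tested genes. The part of that in the Siglech values was not tested. Of the 7 other markers of plasmacytoid dendritic cells, the blood cells for which Siglech is a marker, Ccr9, Pacsin1, Irf7 and Bst2 had reads in every library and Klk1 in none. Ly6d had no read in 9 libraries and Cox6a2 none in 5, while Irf7 and Bst2 reached 2.54 and 1.88 RPM. The list summed to 4.19 to 5.64 RPM in aged and 2.59 to 3.94 RPM in young libraries, the opposite order to Siglech. It summed to 4.66 and 2.89 RPM in labelled deltaMG and 4.46 and 5.92 RPM in labelled control libraries. The part of plasmacytoid dendritic cells in the Siglech values was not tested.

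Siglece, an inhibitory receptor of mouse myeloid cells, was lowest in the libraries labelled control. It was at 26.2 and 28.9 RPM in the libraries labelled deltaMG, against 17.1 and 21.2 RPM in those labelled control. The control pair lay below all 8 other libraries. The log2 difference was 0.51 with a standard error of 0.22. In the ageing comparison Siglece was at 21.9, 24.7 and 38.5 RPM in aged libraries, against 29.9, 28.4 and 28.1 RPM in young ones. The aged libraries fell on either side of the young ones, and the log2 difference of -0.06 with a standard error of 0.18 was within their spread. Its means in aged, young and labelled deltaMG libraries, 28.4 RPM ± 8.85, 28.8 RPM ± 1.01 and 27.5 RPM ± 1.96 (SD, n = 3, 3 and 2), did not differ beyond their spread.

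Neutrophils and monocytes carry Siglece too, so their markers were read beside it. The aged library with the highest Siglece, 38.5 RPM, also had the highest neutrophil sum, 4323 RPM, and the highest sum of 8 monocyte markers, 835 RPM. Of the marker lists, 4 of 7 tested monocyte genes and 1 of 11 tested neutrophil genes were called higher in aged libraries. The share over all tested genes was 3.16%. In libraries labelled deltaMG 1 of 11 tested neutrophil genes and none of the 7 monocyte genes were called higher, beside 1.2% of all tested. The 2 libraries labelled control, lowest in Siglece, had neutrophil sums of 697 and 463 RPM and monocyte sums of 104 and 64.9 RPM. Aged replicate 1 had 21.9 RPM of Siglece at a neutrophil sum of 1677 RPM, and young replicate 3 had 28.1 RPM at a sum of 560 RPM. With the mean log2 level of the neutrophil markers as a covariate the difference between labelled deltaMG and labelled control was 0.24 for Siglece and -1.76 for Cd22. The part of these cells in the Siglece values was not tested.

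**Figure D2:**
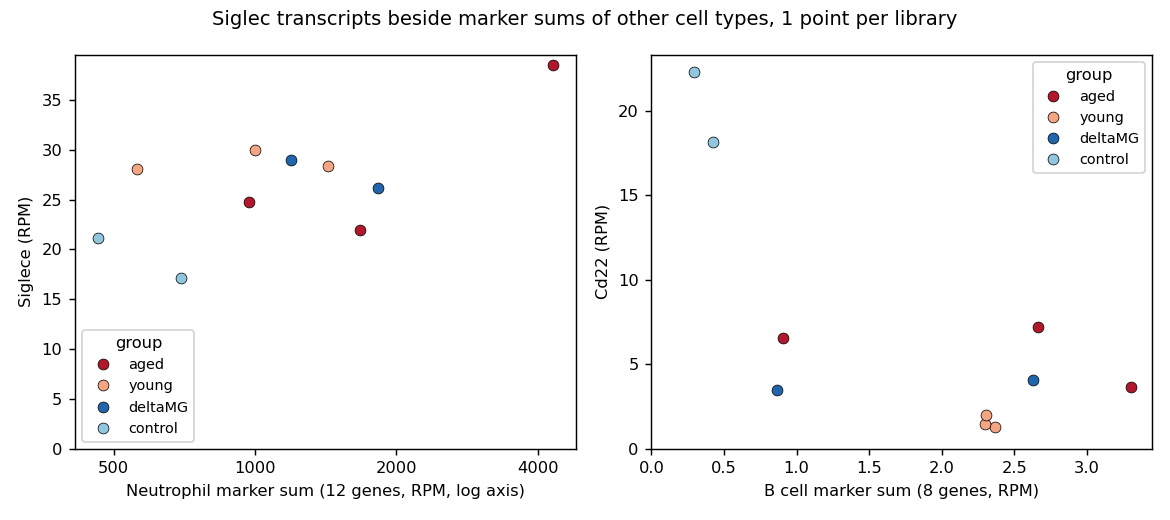
Left, Siglece (RPM) against the summed neutrophil markers (RPM, log axis), and right, Cd22 (RPM) against the summed B cell markers without Cd22 (RPM), with 1 point per library coloured by group. The libraries labelled control lie lowest for Siglece and, in the right panel, highest for Cd22 at B cell sums of 0.297 and 0.423 RPM.

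Cd33, a receptor whose human gene is linked to the risk of Alzheimer's disease, was the most abundant member in RPM and differed little. It was at 215, 207 and 228 RPM in aged libraries, against 302, 264 and 200.4 RPM in young ones. The young libraries spread on both sides of the aged ones, and the log2 difference was -0.22 with a standard error of 0.14. Labelled deltaMG libraries had 259 and 269 RPM, and both labelled control libraries had 274 RPM. The log2 difference of -0.05 had a standard error of 0.17, and it was 0.04 with quantile normalization, so its sign was not fixed. In the order labelled control, labelled deltaMG, young and aged, the young range covered the means of all 3 other groups.

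Siglec1, which marks macrophages at the borders of the brain and inflammatory monocytes rather than resting microglia, was near the lower limit of detection. It was at 3.13, 2.22 and 2.54 RPM in aged libraries, against 3.15, 2.62 and 0.720 RPM in young ones. Labelled deltaMG libraries had 1.79 and 1.16 RPM, against 0.594 and 1.69 RPM in labelled control ones. All these values rested on 4 to 22 reads per library, and the ranges of all neighbouring groups overlapped. Markers of border macrophages, 9 genes, summed to 32.1 to 84.6 RPM in aged, 26.9 to 30.0 RPM in young, 48.7 and 50.3 RPM in labelled deltaMG and 39.2 and 47.9 RPM in labelled control libraries.

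Levels of different genes were compared as RPM per kb of annotated exon. Exon length was taken over all annotated transcripts of a gene, 7771 bases for Cd33 and 3383 for Siglech. Which transcripts were sequenced was not tested, and in RPM Cd33 was above Siglech in all 4 groups. On the scaled values Cd33 and Siglech were above the rest in all 4 groups. Siglech was above Cd33 without overlap in libraries labelled deltaMG and control, with means of 43.6 against 35.3 RPM per kb in labelled control. In aged and young libraries their ranges overlapped. In aged libraries they were at 27.9 ± 1.34 and 26.7 ± 0.924 RPM per kb, followed by Siglece at 15.3 ± 4.79, Cd22 at 1.15 ± 0.372 and Siglec1 at 0.368 ± 0.0648 RPM per kb (SD, n = 3). In young libraries Siglech was at 39.9 ± 4.01, Cd33 at 32.9 ± 6.63, Siglece at 15.6 ± 0.545, Cd22 at 0.314 ± 0.0771 and Siglec1 at 0.303 ± 0.179 RPM per kb (SD, n = 3). The last pair did not differ beyond its spread in young libraries. In libraries labelled control Cd22 reached 4.01 ± 0.575 RPM per kb, against 10.3 ± 1.55 for Siglece there (SD, n = 2). In those labelled deltaMG the same genes were at 0.747 ± 0.0828 and 14.9 ± 1.06 RPM per kb (SD, n = 2).

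**Figure D3:**
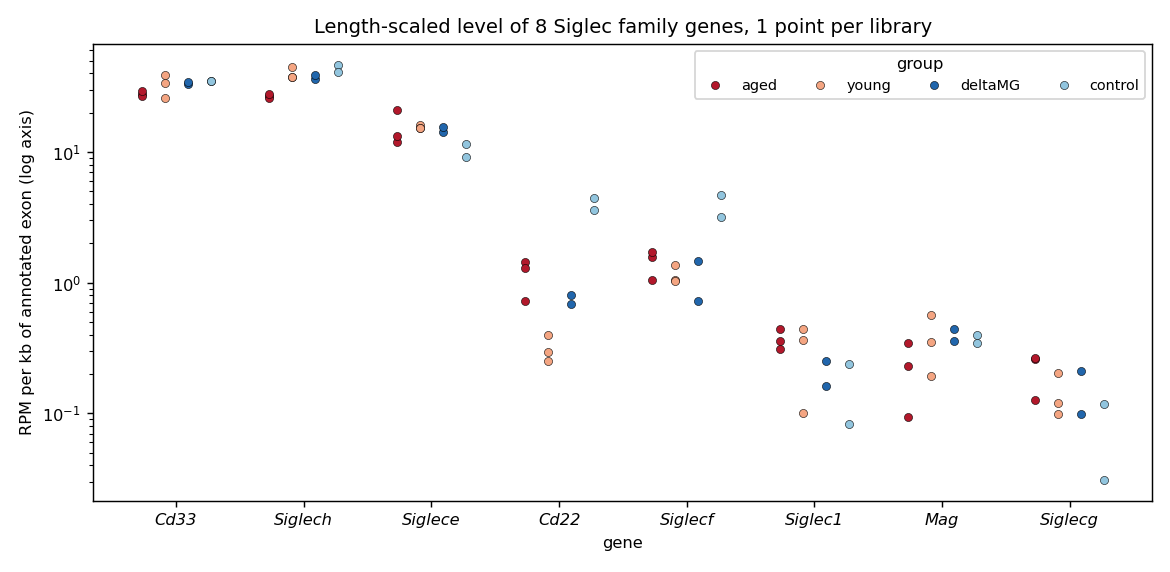
RPM per kb of annotated exon (vertical log axis) for 8 family genes, with 1 point per library and groups by colour. Cd33 and Siglech lie highest, Cd22 and Siglecf are each highest in the 2 libraries labelled control, and the young Cd22 values reach down among those of Siglec1, Mag and Siglecg.

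The comparisons were fitted with limma across all genes that reached 10 RPM in 2 libraries or more. Of 4151 such genes 6.14% were called in the ageing comparison at a Benjamini-Hochberg adjusted p under 0.05, and 3.78% in the Rab7 comparison. Of the 5 members 4 were tested, and Siglec1 was too low. Cd22 passed the filter only through the libraries labelled control, so a difference there was built into its passing. For ageing 2 of the 4 were called, Cd22 higher in aged libraries, beside 3.16% of all tested genes, and Siglech lower, beside 2.99%. In the Rab7 comparison none of the 4 was called higher in the libraries labelled deltaMG, beside 1.2% of all tested genes, and 1, Cd22, was called lower, beside 2.58%. Ranges of the groups were apart for 2 of 5 members in the ageing comparison, where 23.9% of tested genes were apart, and for 4 of 5 in the Rab7 comparison, where 51.8% were. Because the members were listed with these values known, nothing is read from these counts. The ageing call of Cd22 was lost with quantile normalization (log2 difference 0.97), without aged replicate 1 (1.21) and without young replicate 1 (1.28), and the difference was 0.70 with a pseudocount of 5. That of Siglech was lost without young replicate 1 (-0.49), and the Rab7 call of Cd22 without the library labelled control replicate 1 (-2.01). The filter of all 10 libraries was kept in these fits, and without either library labelled control Cd22 would not have passed it anew. With a minimum of 1 RPM, which Cd22 passed in every library, it was called in both comparisons. The limma adjusted p was 0.00353 for ageing and 0.000396 for Rab7, beside 3.44% and 1.69% of genes called.

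**Figure D4:**
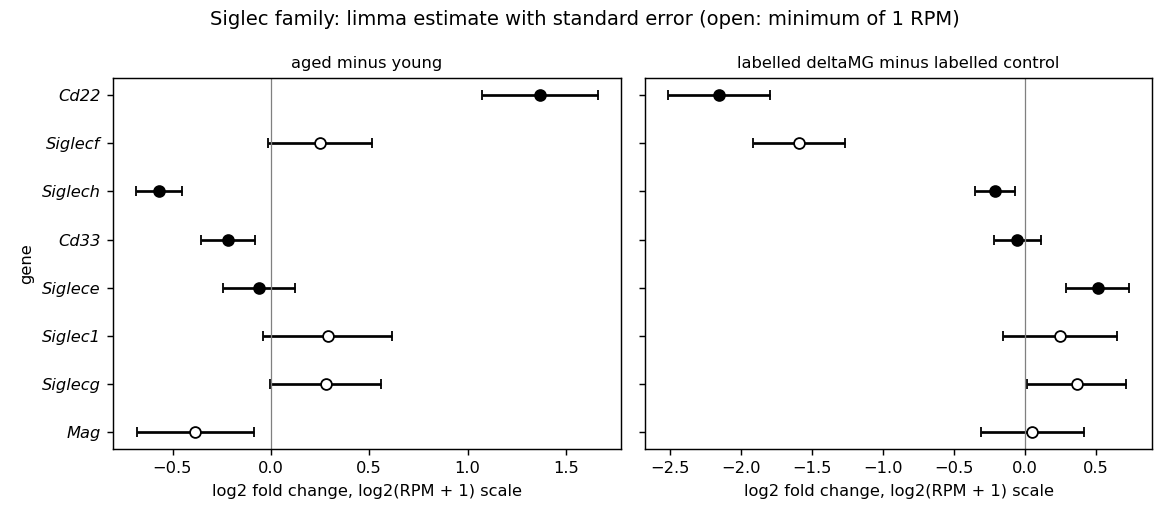
Log2 fold change on the log2(RPM + 1) scale with its standard error (horizontal axis) for 8 family genes, aged minus young on the left and labelled deltaMG minus labelled control on the right. Filled points come from genes passing the minimum of 10 RPM, and open points from the fit with a minimum of 1 RPM. Cd22 lies at 1.37 on the left and at -2.15 on the right.

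The other 4 genes of the family were low. Siglecf, an inhibitory receptor best known from mouse eosinophils, had the highest values among them, and these lay in the libraries labelled control, as did those of Cd22. It was at 4.06 and 2.03 RPM in the libraries labelled deltaMG, against 13.1 and 8.88 RPM in those labelled control. The control pair was above all 8 other libraries. Siglecf reached the minimum of 10 RPM in 1 library and was not tested with it. In the fit with a minimum of 1 RPM, where 1.69% of 10800 genes were called, it was lower in labelled deltaMG libraries. Its log2 fold change on the log2(RPM + 1) scale was -1.59 (SE 0.32, limma adjusted p = 0.0095), and the ratio of the mean RPM was 0.277. With age it was at 4.39, 2.93 and 4.83 RPM in aged libraries, against 3.78, 2.95 and 2.88 RPM in young ones, which was not called (limma adjusted p = 0.710, log2 fold change 0.25), beside 3.44% of genes called in that fit. The 5 other eosinophil markers summed to 5.14 and 3.62 RPM in libraries labelled deltaMG and to 2.67 and 1.55 RPM in those labelled control. Between these groups that is the reverse of the order of Siglecf. In aged replicates 1, 2 and 3 they summed to 9.09, 2.93 and 25.9 RPM, the same order as Siglecf there. Their sum in young libraries was 3.02 to 5.52 RPM. The part of eosinophils in the Siglecf values was not tested.

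Siglecg, an inhibitory receptor known from B cells, was at 0.606 to 1.27 RPM in aged, 0.473 to 0.984 RPM in young, 0.478 and 1.01 RPM in labelled deltaMG and 0.149 and 0.564 RPM in labelled control libraries. Mag, the sialic acid binding glycoprotein of myelin, lies beside Cd22 on the same strand and was at 0.381 to 2.30 RPM in all libraries. It was at 1.79 and 1.45 RPM in labelled deltaMG and at 1.63 and 1.41 RPM in labelled control libraries, with overlapping ranges. Siglec15 had 1 read in young replicate 3 and none in the other 9 libraries, where the upper bound of the exact 95% Poisson interval, which covers counting error only, was 0.372 to 0.605 RPM. In the fit with a minimum of 1 RPM the limma adjusted p of Siglecg, Mag and Siglec1 was 0.579 to 0.733 for ageing and 0.743 to 0.975 for the Rab7 comparison.

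Partners of these receptors were read from lists of genes. Of 16 signalling genes 14 were tested. For ageing 1 was lower in aged libraries, beside 2.99% of all tested genes, and none was higher, beside 3.16%. The median log2 fold change was 0.06, beside -0.05 over all tested genes. The one called was Inpp5d, which encodes the lipid phosphatase SHIP1. It fell to 58.7 RPM ± 7.38 in aged libraries, against 80.9 RPM ± 3.92 in young ones (SD, n = 3 each; log2 fold change -0.46, limma adjusted p = 0.0424). That call was lost when any 1 of 7 libraries was left out, namely aged replicates 1 and 3, all young replicates and both libraries labelled control, with an adjusted p of up to 0.147. It was also lost with a minimum of 1 RPM (adjusted p = 0.0568), median-of-ratios rescaling (0.0577), quantile normalization (0.0804), the 6 libraries of the comparison alone (0.0850) and the neutrophil score as covariate (0.175). Ptpn6, the phosphatase recruited by ITIMs, was at 0.27 on the log2 scale (limma adjusted p = 0.579). Lyn, a kinase that phosphorylates ITIMs, was at -0.35 (limma adjusted p = 0.0821).

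In the Rab7 comparison 1 of the 14 signalling genes was lower in the libraries labelled deltaMG, beside 2.58% of all tested genes. None was higher, beside 1.2%, and the median was -0.09, beside -0.02 over all tested genes. The one called lower was Tyrobp, the adaptor of Siglech. Tyrobp was at 54.8 and 62.1 RPM in the libraries labelled deltaMG, against 149 and 92.4 RPM in those labelled control. The control pair lay above all other libraries and spread widely. The mean of Tyrobp was 58.4 RPM ± 5.11 in labelled deltaMG and 121 RPM ± 40.4 in labelled control libraries (SD, n = 2 each; limma adjusted p = 0.0107). The log2 fold change of -1.0 was -0.65 (adjusted p = 0.216) without the library labelled control replicate 1 and -0.91 (adjusted p = 0.134) without labelled deltaMG replicate 1. Siglech itself, as given above, was at 123 and 131 RPM against 158 and 138 RPM in the same libraries.

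The sialic acids that Siglecs bind are attached by sialyltransferases. Of 20 such genes 8 were tested, with a median log2 fold change of -0.14 in the ageing comparison and -0.07 in the Rab7 comparison. For ageing 2.99% of all tested genes were called lower and 3.16% higher, and of the 8 only St3gal2 was called. St3gal2 adds sialic acid in alpha-2,3 linkage to glycolipids and glycoproteins. It fell to 11.2 RPM ± 1.56 in aged libraries, against 18.8 RPM ± 2.05 in young ones (SD, n = 3 each; log2 fold change -0.69, limma adjusted p = 0.0225). The call was lost without aged replicate 1 (adjusted p = 0.0769), young replicate 1 (0.106) or young replicate 3 (0.0772), and with the neutrophil score as covariate (0.0514) or the 6 libraries of the comparison alone (0.0667). St3gal5 and St3gal6 had log2 fold changes of -0.53 and -0.48 with adjusted p of 0.0789 and 0.0763.

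In the Rab7 comparison 1.2% of all tested genes were called higher and 2.58% lower. St8sia4, a polysialyltransferase, was the only sialyltransferase called there. It was at 15.4 and 16.5 RPM in the libraries labelled deltaMG, against 7.13 and 6.35 RPM in those labelled control, a rise of 1.13 on the log2 scale (limma adjusted p = 0.0262). That call was lost when any 1 of the 4 libraries of the comparison was left out (adjusted p = 0.130 to 0.156). With the neutrophil score as covariate the log2 fold change was 0.72 (adjusted p = 0.193). St6gal1, which makes the alpha-2,6 linked sialic acid that Cd22 prefers, was at 19.4 and 22.0 RPM in libraries labelled deltaMG, against 37.3 and 30.0 RPM in those labelled control. Its log2 fold change of -0.67 did not pass (limma adjusted p = 0.0622), although it did in 5 of the alternative fits. Over all tested genes 6.14% were called for ageing and 3.78% in the Rab7 comparison. In neither comparison did limma call a gene among 1 tested of 9 for sialic acid synthesis and 4 tested of 7 sialidases and esterases. The only one with an unadjusted p under 0.05 was Ctsa. Ctsa, which encodes the protective protein of the sialidase Neu1, was at -0.52 on the log2 scale in the Rab7 comparison (unadjusted p = 0.0128, limma adjusted p = 0.133).

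**Figure D5:**
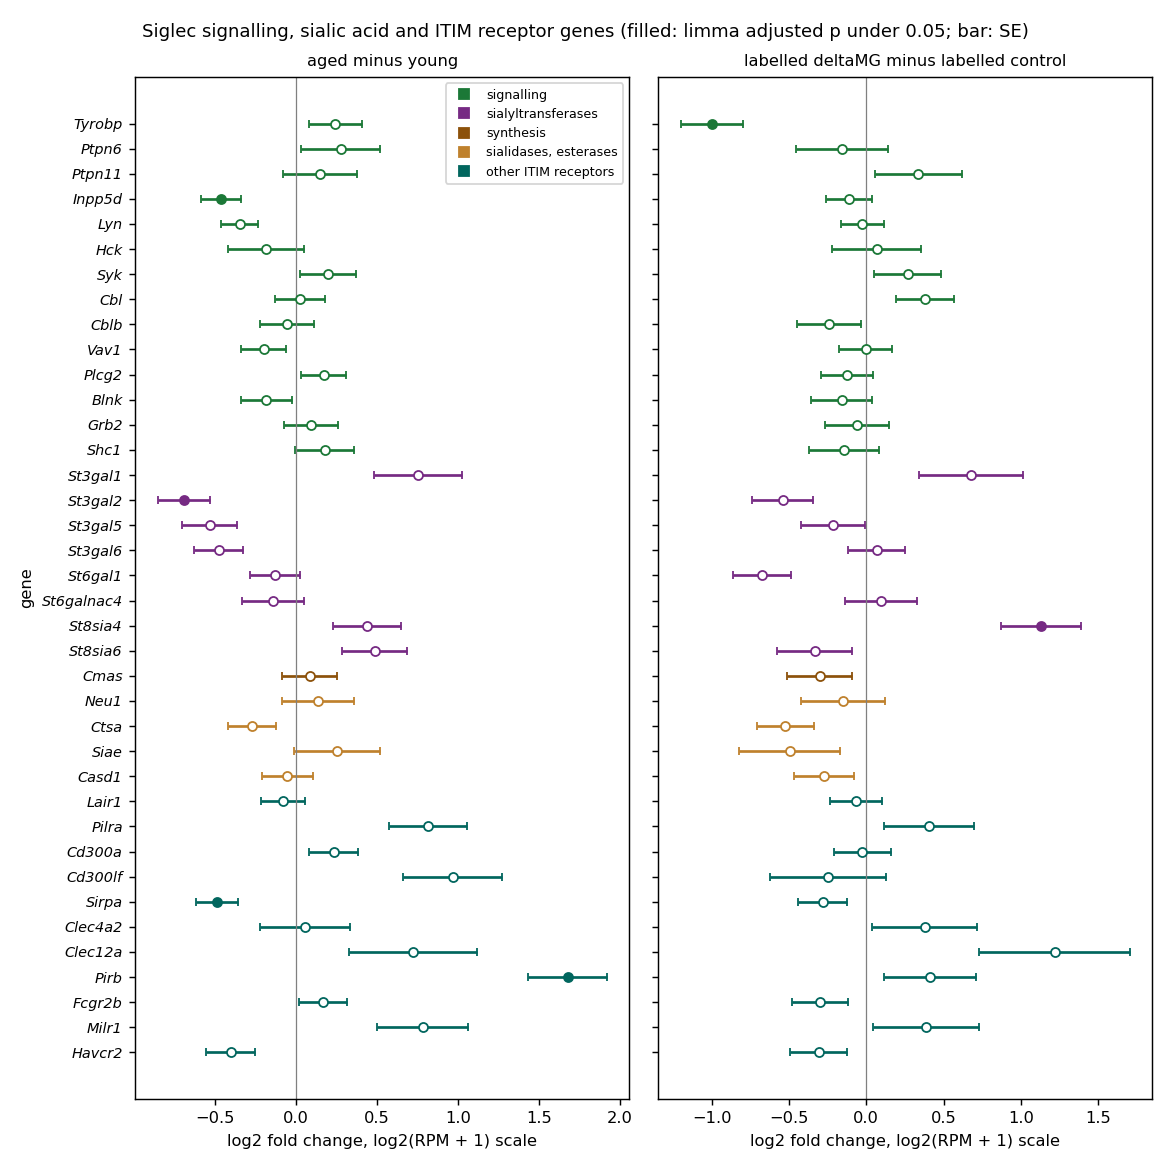
Log2 fold change on the log2(RPM + 1) scale with its standard error for the tested genes of 5 lists, aged minus young on the left and labelled deltaMG minus labelled control on the right, coloured by list. Filled points passed a limma adjusted p under 0.05, namely Inpp5d, St3gal2, Sirpa and Pirb on the left and Tyrobp and St8sia4 on the right.

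Other inhibitory receptors, most of them with ITIMs, formed the last list. Of 17 listed names, 15 were measured under that name and 11 were tested. Lilrb3 is another name of Pirb, which is on the list, and Lilrb4 was measured as Lilrb4a, which was not read. The median was 0.23 in the ageing comparison and -0.02 in the Rab7 comparison. In aged libraries 1 was called higher, beside 3.16% of all tested genes, and 1 lower, beside 2.99%. Genes not called but with an unadjusted limma p under 0.05 were Pilra, Cd300lf, Milr1 and Havcr2. Their log2 fold changes were 0.82, 0.97, 0.78 and -0.40 (limma adjusted p = 0.0575, 0.0770, 0.117 and 0.131). Pirb was at 17.7, 16.9 and 35.4 RPM in aged libraries, against 5.99, 7.05 and 5.61 RPM in young ones (log2 fold change 1.68, limma adjusted p = 0.00107), and it passed without each of the 10 libraries in turn. The log2 fold change of Pirb was 1.245 with the neutrophil score as covariate (limma adjusted p = 0.000417). It was 1.345 without aged replicate 3, the library with the highest Pirb and the highest neutrophil and monocyte sums. The part of blood cells in the Pirb values was not tested. Reads of Pirb may be shared with its activating relatives, the Pira genes. Sirpa, the receptor for the signal from Cd47, fell to 309 RPM ± 2.84 in aged libraries, against 436 RPM ± 59.3 in young ones (SD, n = 3 each; log2 fold change -0.49, limma adjusted p = 0.0402). This call was lost without aged replicate 1 or 3, young replicate 1 or 2, or either library labelled control, with an adjusted p of up to 0.173. It was also lost with quantile normalization, where the log2 fold change was -0.28 (adjusted p = 0.0547), and with the 6 libraries of the comparison alone (0.0668). None was called by limma in the Rab7 comparison, beside 3.78% of all tested genes. Clec12a was the only 1 of the 11 with an unadjusted p under 0.05 there, at 0.0249, with a log2 fold change of 1.22 that was -0.11 with the neutrophil score as covariate. It was called with the 4 libraries of the comparison alone (limma adjusted p = 0.00616), with array weights (0.0437) and without aged replicate 3 (0.0238).

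The genes most like each member over the 10 libraries were found by Pearson's r of log2(RPM + 1), among up to 687 genes that averaged 50 RPM or more. For Cd22 they were Apoe (r = 0.94), Gnas (0.93) and Nfe2l2 (0.92). Apoe, a lipid carrier, shared the order of the groups, with 62.7 and 52.7 RPM in labelled deltaMG and 193 and 144 RPM in labelled control libraries, and 77.4 to 103 RPM in aged and 29.9 to 42.0 RPM in young ones. For Siglech the closest were Rnase4 (0.98), Dync1h1 (0.96) and Sirpa (0.95). Rnase4, which encodes a secreted ribonuclease, was at 80.2 to 83.9 RPM in aged and 127 to 149 RPM in young libraries. For Cd33 they were Sec14l1 (0.93), Runx1 (0.91) and Kcnk6 (0.91), and for Siglece Cdk6 (0.87), Arhgef6 (0.83) and Plagl2 (0.81). These values describe the same 10 libraries, share their depth and scaling, and are given without a test.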

How the data were processed

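Per the labels' protocols, RNA of microglia went through NuGEN Ovation amplification before library preparation. The authors deposited 1 table, and its values were taken to be RPM, since most low values of a library were whole multiples of 1 step above a constant of 0.0001, a step of 0.101 to 0.164 RPM. At up to 500 reads, 94.2% to 94.6% of a library's values lay within 0.05 of a whole number of reads. Since others were fractions, no count model was used. The builds GRCm38 and mm10 are named in the submitters' processing notes. The aligner, counter, annotation, normalisation and strand setting were not given in the sources used here.

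Symbols were matched to GENCODE M21, 23405 directly and 606 through RefSeq synonyms, and 442 were left unmatched. Genes that reached 10 RPM in 2 or more of the 10 libraries entered a limma fit (version 3.58.1, R 4.3.3) on log2(RPM + 1), with 4 groups and 1 shared spread. The contrasts were aged minus young and labelled deltaMG minus labelled control, and Benjamini-Hochberg adjusted p under 0.05 was a call. The fit was tested on simulated data. Figures used matplotlib 3.10.9.

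Members and lists were chosen with earlier results of these data known. Named genes were the 9 family genes, list genes called in either comparison or among the 2 with the smallest p in each, and the 3 genes most correlated with each tested member. Some of these are given only among the processing alternatives, and others of the lists were named after their values were seen. Alternatives covered the filter, pseudocount, scaling, libraries fitted, replicate block, array weights, a neutrophil score (the mean log2 level of the tested neutrophil markers) and leaving out each library. Values of 1 marker gene are not reported here.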

Additional observations from a re-analysis of the deposited data

How the results depend on the processing

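In the ageing comparison 255 genes were called by limma (131 higher and 124 lower) and in the Rab7 comparison 157 (50 higher and 107 lower). With a minimum of 50 RPM in 3 libraries the counts were 116 and 62, and with only the libraries of each comparison fitted 121 and 510. Array weights gave 357 in the Rab7 comparison, and the neutrophil score as covariate gave 141 in the ageing comparison. Leaving out 1 library gave 96 (without young replicate 1) to 422 (without aged replicate 2) in the ageing comparison and 25 (without labelled control replicate 1) to 317 (without aged replicate 3) in the Rab7 comparison. Median-of-ratios rescaling gave 217 higher and 128 lower in aged libraries, and quantile normalization 167 and 109. For the Rab7 comparison median-of-ratios rescaling put 95 genes higher and 136 lower, and the split was 69 and 109 with quantile normalization, 258 and 252 with its own libraries alone and 176 and 181 with array weights. With the replicate block the counts were 66 and 69. Replicate numbers are not shown to pair libraries, since deviations of same-numbered libraries correlated at -0.14, -0.24 and -0.39 in the ageing comparison and at 0.12 in the Rab7 comparison. Under the block the ageing calls of Cd22, Siglech, Inpp5d, St3gal2 and Sirpa and the Rab7 call of St8sia4 were lost.

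For 20 named genes 780 alternative values were computed, of which 700 kept direction and call, 43 lost a call, 15 gained one and 22 changed sign. Every sign change was in a gene not called in that comparison. In the ageing comparison, the neutrophil score gave -0.10 for Cbl, -0.13 for Clec12a and -0.056 for Rab7, and array weights gave -0.15 for Cbl. Leaving out 1 library there gave -0.13 to 0.17 for Cbl, -0.015 to 0.15 for Cmas, -0.017 to 0.36 for Rab7, -0.033 to 0.45 for Siae and -0.29 to 0.10 for Siglece. In the Rab7 comparison, quantile normalization gave 0.038 for Cd33, and the neutrophil score gave -0.11 for Clec12a, 0.037 for Inpp5d, 0.059 for Lyn, -0.27 for Pirb and -0.21 for Rab7. Leaving out 1 library gave -0.14 to 0.086 for Lyn, -0.19 to 0.32 for St3gal6 and -0.060 to 0.55 for Xist. The cause was not tested. Counting limits Cd22 in young libraries (8 to 14 reads) and Siglec1 throughout (4 to 22 reads), and with 2 libraries a group the Rab7 values lean on the spread of the other groups.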
